A study of Ananas comosus with 78 samples.

Results

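The 117 pineapple genes described here were lower with ethephon than with water, 6 h after treatment, in both tissues that were sampled, the stem apex and the base of the 'D' leaf, which is the most recently matured leaf. They were taken from 21213 genes that had at least 1 read in the 6 h libraries of each tissue, so they are 0.552% of them, and the files list 27024 genes in all. The genes were chosen by their 6 h read counts: a gene was included if edgeR's quasi-likelihood test gave an adjusted p (Benjamini-Hochberg) under 0.05 and a log2 fold change of -1 or below in the apex and again in the leaf base. The 6 h values are therefore given as description only, whereas the libraries of days 1 to 8 were not used for the choice and were tested.

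The plants were field-grown Ananas comosus of the selection PRI 73-50, for which the labels give both MD1 and MD2 as cultivar. Ethephon-treated plants received 50 mg of ethephon in 10 ml placed in the heart of the plant, and controls received 10 ml of water. Sampling of both treatments took place at 6 h, on days 1 to 6 and on day 8 for apices, and ended on day 4 for leaf bases. These samplings carry the labels d.a.t. 1 to 8 and 1 to 5, and the times are those in the study's methods and Results. The methods also list day 5 for leaf bases, which is more samplings than the labels hold, so the leaf base times follow the Results. Each of the 26 conditions had 3 libraries (78 in all), and each library held tissue of 3 plants. At the first sampling the plants were harvested on the same morning as the treatment, shortly after it. Preparation of the tissue ended in the afternoon, and the study's 6 h runs to the end of that preparation. On later days the tissue was cut in the morning and prepared by noon. The excised apices still carried leaf primordia.

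Ethephon breaks down in plant tissue and releases ethylene. Ethylene binds to receptors in the endoplasmic reticulum, the block on the signalling protein EIN2 is lifted, and transcription factors of the EIN3 and ERF families then switch target genes on and off. In pineapple, growers use the treatment to force flowering, during which the vegetative apex turns into an inflorescence. Among the 117 genes are enzymes of trehalose 6-phosphate, a sugar signal that reports sucrose supply, and proteins of the response to abscisic acid, the hormone of water stress.

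The deposited files give gene identifiers without names. Names were taken from the study's text and from the part of its annotation table used here, which covers only some genes, and gave a name to 10 of the 117 genes. The other 107 are not named here and are described as a group, and 4 of them are cited by identifier as genes called lower, or called higher, in many later comparisons. The total count per library ranged over 1418697 to 13180667 (median 5364716). At 6 h the totals were 3867855 to 7654765 in ethephon apices and 1989688 to 3771922 in water apices, and 5000643 to 7698093 in ethephon leaf bases and 3296358 to 7763954 in water leaf bases. The shallowest group was the ethephon apices of day 8, with 1418697 to 1930038 counts. The tissue labels were checked with 8 shoot meristem genes, which summed to 45.1 to 619 CPM (counts scaled to library size) over the apex conditions and to 1.64 to 8.13 CPM over the leaf base conditions.

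Ethephon and water apices of one sampling were never sequenced in the same lane, so that lane and treatment cannot be told apart at the apex. At the leaf base the treatments shared 2 lanes at 6 h and 1 lane on each of days 1 and 2, and none on days 3 and 4. A lower value in a pool of tissue can mean fewer cells of a type or less RNA in each cell, and these cannot be told apart.

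At 6 h the median log2 fold change of the 117 genes was -1.97 at the apex (range -6.39 to -1.1) and -2.61 at the leaf base (range -9.25 to -1.02), and the fall was the larger at the leaf base for 83 genes. Setting genes with at most 3 counts in every ethephon library to the smallest fold those counts allow gave medians of -1.95 and -2.38. There were 6 such genes at the apex, where the bounds were at least 3.31 to 7.69-fold lower, and 20 at the leaf base, where they were at least 1.39 to 95.2-fold lower. A log2 fold change of -2 or below in both tissues was reached by 48 genes. Among all genes tested, 1.87% were called lower and 1.86% higher at the apex at 6 h, and 11% lower and 8.59% higher at the leaf base. The 117 genes made up 28.7% of the 408 apex calls and 4.75% of the 2464 leaf base calls.

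**Figure D1:**
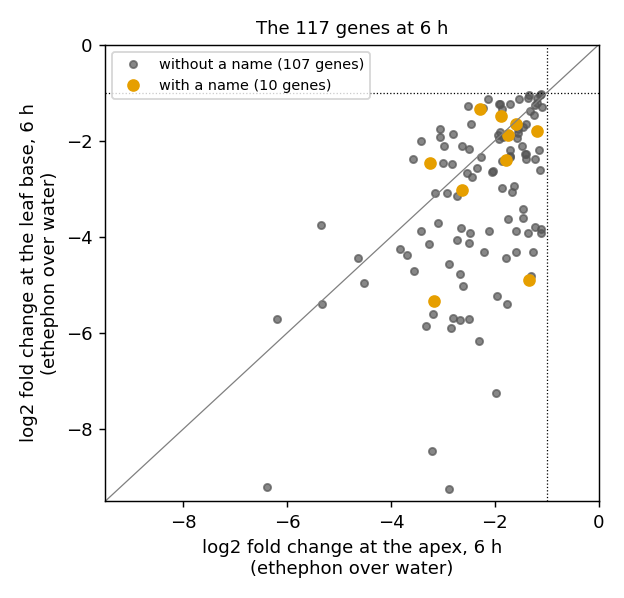
Change of each of the 117 genes at 6 h, as log2 fold change of ethephon over water, at the apex (horizontal axis) and at the leaf base (vertical axis). Dotted lines mark the limit of -1 that chose the genes and the solid line marks equal change, below which lie the 83 genes with the larger fall at the leaf base.

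The genes nearest the limit on either side differed little. The smaller of the 2 falls was -1.02, -1.04 and -1.04 on the log2 scale in the 3 genes just inside it, and -0.999, -0.99 and -0.98 in the 3 genes just outside it that passed the limit on p in both tissues. For 56 of the 117 genes the larger of the 2 adjusted p-values lay between 0.01 and 0.05. In the 6 h apices, all ethephon libraries lay below all water libraries for 106 of the 117 genes (9.07% of all genes tested), and in the leaf bases for 114 (22.4% of all genes tested). The rule favours such a separation in these libraries, so the counts are description only and the shares of all genes are not a fair baseline.

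The 117 genes were also described within the lanes that both treatments shared at the leaf base at 6 h. These are libraries that chose the genes, so the direction was fixed by the rule. In the first shared lane, with 1 ethephon and 1 water library, their median difference was -2.72 on the log2 scale and 116 genes were lower. In the other, with 2 ethephon libraries and 1 water library, the median difference was -2.46 and 116 genes were lower, while the median over all genes was 0 in both lanes. With lane as a term at the leaf base, 108 genes met the rule, 105 of them among the 117.

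The 6 h water libraries had the highest mean of the 16 apex conditions for 96 of the 117 genes (12.6% of all genes), and of the 10 leaf base conditions for 88 (21.5% of all genes). The median level of the 117 genes, in log2 CPM, was 2.14, 2.74 and 2.79 in the ethephon apices at 6 h, against 4.14, 4.66 and 4.75 in the water apices. In the leaf bases at 6 h it was 1.07, 1.26 and 1.65 with ethephon and 3.69, 4.34 and 4.6 with water. The treatments did not overlap in either tissue, and the median over all genes was between 3.66 and 3.83 in these 4 conditions. The 6 h libraries chose the genes, so the rule favours both a peak in 6 h water and a gap between treatments. The shares of all genes are therefore not a fair baseline.

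Water apices of days 1 to 8 had median levels of the 117 genes of 1.02 to 2.7 log2 CPM, and water leaf bases of days 1 to 4 had 1.63 to 3.07, all below the 6 h water values. For 104 of the 117 genes the water apex mean at 6 h was above that of every later water sampling (21.4% of all genes), and for 91 the same held at the leaf base (27.3% of all genes). Water apices of 6 h to day 5 were all sequenced in 1 lane, and within that lane 106 of the 117 genes had their highest mean at 6 h (22.7% of all genes). These counts rest on libraries that the rule used, and time since treatment, handling and sampling day cannot be told apart in them.

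The ethephon means of 6 h were set against the range of the later water means. At the apex they fell within that range for 86 of the 117 genes (67.4% of all genes), above it for 24 (16.6%) and below it for 7 (16%). In leaf bases they fell within it for 79 genes (71.1% of all genes), above it for 1 (16.2%) and below it for 37 (12.7%). Relative to the mean of the later water samplings, the median of the ethephon 6 h levels differed by 0.83 at the apex and by -0.78 at the leaf base on the log2 scale, and the median of the 6 h water levels by 2.8 and 1.79. The 6 h libraries chose the genes, so these positions are description only.

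**Figure D2:**
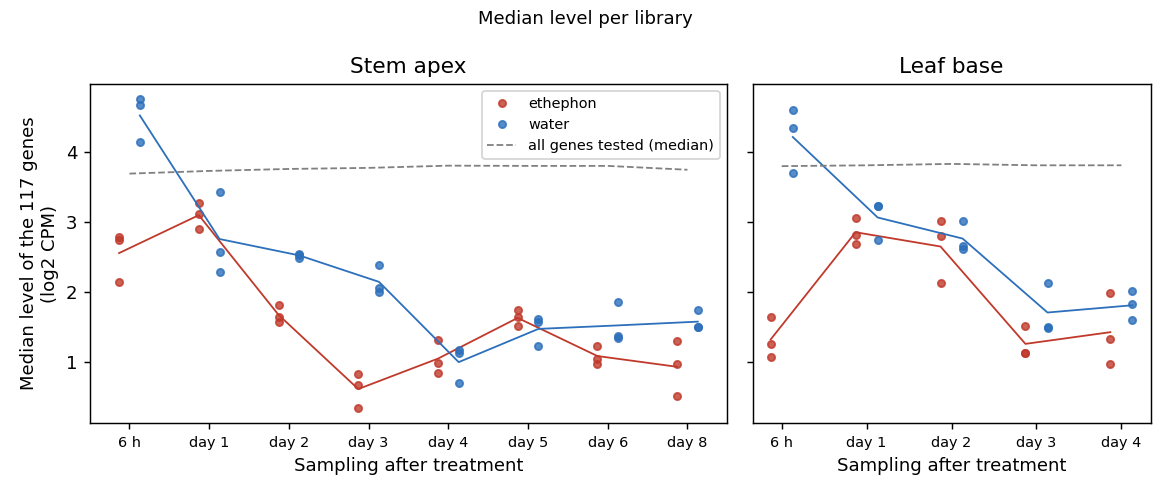
Median level of the 117 genes in each library (points, log2 CPM) by sampling, for ethephon and water, with lines through the means of the 3 libraries and a dashed line for the median of all genes tested. The 6 h water libraries, between 3.69 and 4.75, stand above every other library, and the ethephon apices of day 3, between 0.35 and 0.83, hold the lowest median of any apex condition.

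At the apex the median level was lower on every later day than on day 1 in both treatments. In the order of the samplings after 6 h, the condition medians in log2 CPM were 3.08, 1.55, 0.48, 1.11, 1.73, 0.97 and 0.73 in ethephon apices and 2.7, 2.3, 2.02, 1.02, 1.44, 1.5 and 1.52 in water apices. One of the 3 water apices of day 1 stood apart, with a median of 3.42 against 2.28 and 2.57 in the other two. The 117 genes together took 2.01% of the counts in water apices at 6 h, 0.656% in ethephon apices at 6 h and 0.105% in ethephon apices on day 3.

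Whether the genes stayed lower after 6 h was tested in the 11 later comparisons. A gene was called at an adjusted p under 0.05 in edgeR's quasi-likelihood test and a change of at least 2-fold, with p-values adjusted over all genes tested in that comparison. Apex libraries of days 2 and 3 gave the most calls. On day 2, 36 of the 112 genes tested were called lower (5.34% of all genes tested) and 3 higher (9.76% of all genes), which became 1 without water replicate 3 or ethephon replicate 1. On day 3, 45 of 111 were called lower (7.19% of all genes) and 7 higher (7.2% of all genes). The same 22 genes were lower on both days, which is 61.1% of the day 2 calls and 48.9% of the day 3 calls. How far the lower calls of these days overlap over all genes was not tested.

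The fitted median log2 fold change of the genes tested was -1.01 on day 2 and -1.35 on day 3, against 0.01 and 0 over all genes. With genes at or under 3 counts set to their bound, and without genes at that floor in both groups, it was -0.78 and -0.74. The 3 ethephon libraries lay below the 3 water libraries for 53 of 112 genes on day 2 (23.9% of all genes), 56 of 111 on day 3 (19.4% of all genes) and 40 of 111 on day 8 (22.9% of all genes). For the other apex samplings these counts were 11 of 117 on day 1 (21.1%), 16 of 111 on day 4 (19.3%), 12 of 113 on day 5 (14.3%) and 26 of 108 on day 6 (18.8%). The 8 meristem genes summed to 180 to 291 CPM in ethephon apices and 74.4 to 112 CPM in water apices on day 2, to 318 to 332 and 72 to 120 CPM on day 3, and at 6 h to 51.3 to 80.2 and 45.1 to 79.3 CPM. Of these 8 genes, 5 were themselves called higher with ethephon at the apex on day 2 and 6 on day 3, and 0 at 6 h. The sums therefore do not measure tissue make-up apart from the treatment. The part of these differences in the results of days 2 and 3 was not tested.

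**Figure D3:**
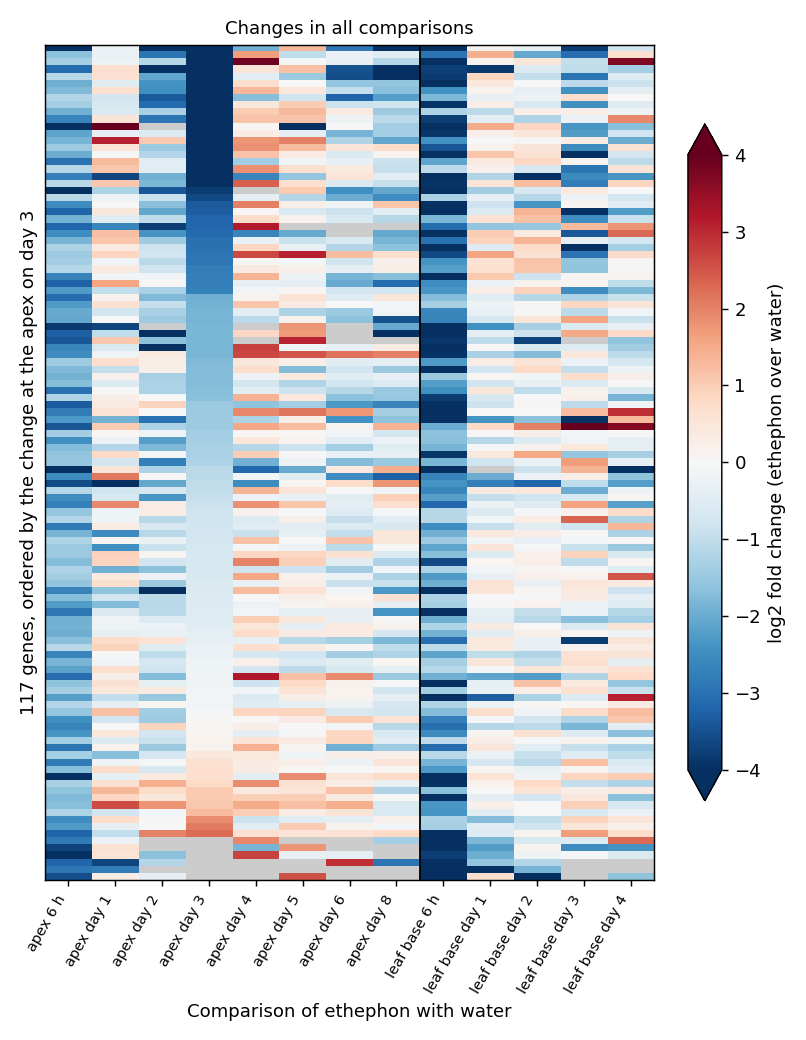
Log2 fold change of ethephon over water for each of the 117 genes (rows, ordered by the change at the apex on day 3) in the 13 comparisons (columns), with blue for lower and red for higher, colours ending at 4 and -4, and grey where a gene had no read. The 6 h columns are blue by the rule, and among the later columns blue is most frequent in those of the apex for days 2 and 3.

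On day 1 at the apex, 9 genes of 117 were called lower (3.63% of all genes) and 10 higher (7.7% of all genes), and the median change was -0.02. Without water replicate 3, the library with the high median, 19 were higher and 5 lower, and without water replicate 1, 6 were higher. Of the 10 genes that were higher on day 1, 7 were lower on day 3. Whether such a reversal is usual among all genes called higher on day 1 was not tested. On day 4 the balance at the apex turned, with 17 of 111 genes higher (3.53% of all genes) and 4 lower (2.12% of all genes), and a median change of 0.34 (0.18 with bounds). Of the 17 genes, 10 had been lower on day 3, and the rate of this reversal over all genes was not tested either. On day 5, 7 of 113 genes were higher (3.83% of all genes) and 6 lower (1.23% of all genes). Without water replicate 2 the 13 calls of day 5 became 8, and without water replicate 2 or 3 the lower calls became 2. The meristem sums were 104 to 151 CPM with ethephon and 49.7 to 69.8 with water on day 1, 331 to 386 and 114 to 170 on day 4, and 421 to 479 and 216 to 232 on day 5, and their part was not tested.

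The water apices themselves differed between days 4 and 5, and this was tested in libraries of 1 lane. On day 5, 29 of 110 genes were higher than on day 4 (2.63% of all genes) and 2 were lower (1.45% of all genes). Without replicate 2 of day 5, or without replicate 1 of day 4, the 31 calls became 20. Between days 5 and 6, which were in different lanes, edgeR called 0 of 109 genes (0.0182% lower and 0.00454% higher of all genes), with 10 at an unadjusted p under 0.05, and DESeq2 called 0. Between days 6 and 8, again in 1 lane, edgeR called 0 of 112 genes (0.0135% lower and 0.0721% higher of all genes), with 15 at an unadjusted p under 0.05, DESeq2 called 1, and edgeR called 7 without replicate 3 of day 6.

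Most of the genes tested were not called on days 6 and 8 at the apex. On day 6, 20 of 108 genes were called lower (2.59% of all genes) and 4 higher (3.46% of all genes), and on day 8, 25 of 111 were lower (4.73% of all genes) and 2 higher (2.82% of all genes). On both days 15 genes were lower, which is 75% of the lower calls of day 6 and 60% of those of day 8. The matching overlap over all genes was not tested. The median change was -0.35 on day 6 and -0.64 on day 8, or -0.36 and -0.17 with bounds. On day 8, 33 genes had at most 3 counts in each of the shallow ethephon libraries but not in each water library. A further 9 genes were at that floor in both groups. Without water replicate 3 the calls of day 6 became 15 in place of 24, with 10 lower, and without ethephon replicate 2 there were 13 lower. DESeq2 called 16 genes on day 8 in place of 27. The 8 meristem genes summed to 425 to 619 CPM in ethephon apices and 167 to 240 CPM in water apices on day 6, and to 294 to 376 and 212 to 246 CPM on day 8, and the part of this was not tested.

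Few genes were called on days 1 and 2 at the leaf base. On day 1, 4 of 116 genes were lower (0.874% of all genes) and 1 higher (0.748% of all genes). On day 2, 1 of 117 was lower (0.582% of all genes) and 4 higher (0.898% of all genes). These counts depended on single libraries, since the 5 calls of day 1 became 10 without water replicate 1, 9 without water replicate 2 and 8 without ethephon replicate 2. The 5 calls of day 2 became 10 and 9 without water replicates 1 and 3, and 0, 1 and 0 without water replicate 2, ethephon replicate 1 and ethephon replicate 3.

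On day 3 at the leaf base, 19 of 113 genes were lower (3.1% of all genes) and 4 higher (4.03% of all genes), and the range of the total without 1 library was 19 to 26. On day 4, 8 of 115 were lower (2.23% of all genes) and 3 higher (1.4% of all genes). The 11 calls of day 4 became 2 without water replicate 2 and 4 without ethephon replicate 2. The median change was -0.23 on day 3, or 0 with bounds, and -0.36 on day 4, or -0.34 with bounds.

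**Figure D4:**
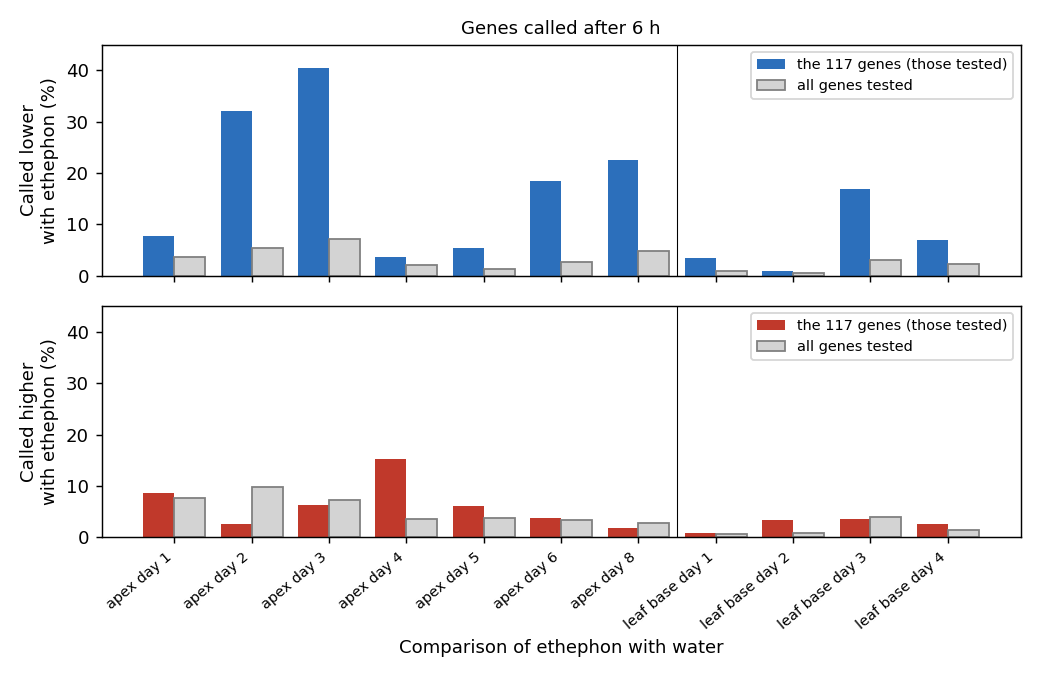
Share of genes called lower (upper panel) and higher (lower panel) with ethephon after 6 h, in percent, for those of the 117 genes that were tested (coloured bars) and for all genes tested (grey bars). The largest shares are 40.5% lower at the apex on day 3 and 15.3% higher at the apex on day 4.

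Counted over the later samplings, 69 of the 117 genes were lower in at least 1 of the 7 apex comparisons (17.8% of all genes) and 29 were higher in at least 1 (20.7% of all genes). Of these, 17 were lower on one day and higher on another (3.94% of all genes). At the leaf base 31 genes were lower in at least 1 of the 4 later comparisons (6.08% of all genes) and 10 were higher (6.75% of all genes). A later fall in both tissues was called for 25 genes (2.89% of all genes), and 32 genes were called in no later comparison (61.7% of all genes).

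The ethephon effect was compared between the tissues with an interaction test over the 12 libraries of a sampling. Per the study's methods, apices and leaf bases were cut from the same plants, so that the 12 libraries came from 6 pools of plants and the test took them as independent. With same-numbered libraries of the 2 tissues taken as 1 pool and the pool as a block, the calls of days 1 to 4 were 17, 26, 29 and 19, against 17, 24, 31 and 20 without it. On day 3, 26 of 114 genes had the lower fold change at the apex (5.41% of all genes) and 5 at the leaf base (4.61% of all genes), and on day 2 the counts were 22 (3.7% of all genes) and 2 (6.83% of all genes) of 117. On day 4 the apex had the higher fold change for 18 of 115 genes (4.35% of all genes) and the lower for 2 (3.03% of all genes). The 20 calls of day 4 became 10 without the libraries of replicate 2. On day 1 the counts were 9 lower (3.17% of all genes) and 8 higher (6.63% of all genes), and the 17 calls became 27 and 26 without replicates 1 and 2.

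The rule needed reads of the 117 genes in the 6 h water libraries of both tissues, so their presence there was fixed. Their levels were compared between the tissues in later water libraries. In the 24 water libraries of days 1 to 4, 30 genes were higher at the apex than at the leaf base (12.1% of all genes), 41 were lower at the apex (16.9% of all genes) and 46 were not called. These libraries came from 12 pools of plants, and with the pool as a block 29 were higher and 37 lower. At the apex on day 3, 20 of the 30 apex-rich genes were lower with ethephon, with a median change of -2.31. Of the leaf-rich genes 6 of 36 tested were lower (median -0.64), and of the genes not called 19 of 45 (median -1.31), against 7.19% of all genes. On day 2 these counts were 17 of 30, 6 of 36 and 13 of 46, against 5.34% of all genes. The leaf-rich genes are those lower at the apex than at the leaf base, and only 36 of the 41 had a read there on these days. Whether the classes differ was not tested.

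In structure the genes were close to all genes tested. Their exons summed to a median of 1408 bases, against 1436 over all genes tested, with a median of 5 exons in both. Single-exon genes were 7.69% of them and 10.9% of all. Of the 117 genes, 107 lay on the 25 linkage groups of the assembly Acomosus_321_v3, with at most 10 on one group (linkage group 1), and 10 lay on scaffolds. There were 5 pairs of adjacent genes. Exons of another gene overlapped those of 7 genes. Reads were counted without strand, and the study reports that some were left unassigned for ambiguity. Counts of these 7 genes may thus lack reads from the overlap, which was not tested. Reads were also counted at every position they mapped to, so counts of near-identical copies can be shared. In later water libraries the median level of the 117 genes was 2.01 log2 CPM, against 3.76 over all genes.

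Of the genes with a name, the enzymes of trehalose metabolism are given first. Trehalose phosphate synthase joins glucose units into trehalose 6-phosphate, and trehalose-6-phosphate phosphatase removes the phosphate. In maize such a phosphatase, RAMOSA3, shapes the branching of the inflorescence. The trehalose phosphate synthase gene Aco000950 lies on linkage group 2 at 15413881 to 15418848, on the minus strand, with 5 exons.

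Aco000950 had 6.17, 7.04 and 6.91 log2 CPM in ethephon apices at 6 h, against 7.6, 7.78 and 8.32 in water apices. In leaf bases at 6 h it had 2.69, 2.93 and 2.88 with ethephon and 4.15, 5.26 and 4.23 with water. No ethephon library reached a water library in either tissue, and the log2 fold changes were -1.18 ± 0.26 and -1.79 ± 0.3 (± an approximate SE). On day 3 the apices had 0.35, -0.82 and -0.49 log2 CPM with ethephon and 4.75, 5.68 and 5.01 with water. That is a log2 change of -5.54 ± 0.35 (adjusted p = 1.18e-10), and the gene was also lower on days 2, 4, 6 and 8, with log2 changes of -3.36, -1.69, -3.21 and -2.19 (adjusted p of 1.77e-10 to 0.00192). In leaf bases Aco000950 was called in no comparison after 6 h, and the difference between the tissues was -6.21 ± 0.5 on day 3 (adjusted p = 8.63e-09). In water controls it was 2.12 ± 0.28 higher at the apex than at the leaf base on the log2 scale. The study's text reports a fall of this gene at 6 h in both tissues and on days 2, 3 and 6 at the apex, the same direction as here.

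The phosphatase gene Aco014723, on linkage group 20 at 9546558 to 9551381 (minus strand, 11 exons), was close to the detection limit. It had 0, 4 and 3 counts in ethephon apices at 6 h, against 18, 8 and 5 in water apices, and 0, 1 and 4 counts in ethephon leaf bases, against 64, 28 and 29 in water leaf bases. The fitted log2 fold changes were -3.17 ± 0.72 and -5.34 ± 0.79. The study's text reports a fall of this gene at 6 h at the leaf base, the same direction as here. On days 3 and 4 no library of either tissue or treatment held a read of it. In the 6 later comparisons in which it had a read, edgeR called 0, with 0 at an unadjusted p under 0.05, and DESeq2 called 0, so that a later change was not detectable at this depth.

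A list of 17 genes of trehalose and sugar metabolism holds these 2 genes, which the rule made lower at 6 h in each tissue. Of the 17, 4 were called lower at the apex at 6 h (1.87% of all genes). At the leaf base 7 were lower (11% of all genes) and 2 higher (8.59% of all genes). The list medians were -0.51 and -0.81, against 0.03 and 0.02 over all genes. On day 3, 7 of the 15 tested at the apex were lower (7.19% of all genes) and 6 higher (7.2% of all genes).

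Inositol oxygenase opens the ring of myo-inositol to give glucuronic acid, a precursor of cell wall sugars. Its gene Aco000415, on linkage group 12 at 2006311 to 2009552 (minus strand, 11 exons), was measured more deeply at the apex at 6 h. It then had 1130, 2316 and 4156 counts in ethephon apices and 52, 61 and 116 in ethephon leaf bases. On day 3 it had 15, 14 and 62 counts in ethephon apices and 30, 22 and 51 in ethephon leaf bases. In ethephon apices at 6 h it had 8.1, 8.29 and 9.07 log2 CPM, against 10.02, 10.39 and 10.52 in water apices, and in leaf bases 2.74, 3.65 and 4.18 with ethephon and 5.92, 6.27 and 5.91 with water. The treatments were apart in both tissues, by -1.78 ± 0.28 and -2.41 ± 0.28 on the log2 scale.

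By day 3, Aco000415 was at 1.9, 1.88 and 3.06 log2 CPM in ethephon apices and at 7.79, 8.16 and 8.25 in water apices, a log2 change of -5.6 ± 0.24 (adjusted p = 9.73e-13). One day later the order was reversed, with 5.44, 4.95 and 5.96 in ethephon apices and 4.17, 4.2 and 4.29 in water apices (1.32 ± 0.16 higher, adjusted p = 7.03e-08). The water apices of day 4 were the lowest of the 8 water samplings for this gene. It was lower with ethephon on day 2 (-2.45 ± 0.13, adjusted p = 4.69e-11) and on day 8 (-1.67 ± 0.18, adjusted p = 3.53e-10). At the leaf base it was lower on day 3, at 2.56, 2 and 3.37 with ethephon and 5.18, 5.03 and 5.18 with water (a log2 change of -2.42 ± 0.25, adjusted p = 9e-06).

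The nodulin transporter gene Aco016031 belongs to a family of membrane transporters first described in legume root nodules. It lies on linkage group 22 at 66270 to 73999 (minus strand, 9 exons). It had 5.53, 5.85 and 5.87 log2 CPM in ethephon apices at 6 h, against 7.93, 7.34 and 7.12 in water apices. In leaf bases it had 4.25, 4.54 and 4.56 with ethephon and 6.34, 6.63 and 5.93 with water. The changes were -1.75 ± 0.24 and -1.87 ± 0.2, and no libraries overlapped.

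At the apex Aco016031 was called lower on days 1, 2, 3, 4 and 6, with log2 changes of -1.18, -1.79, -1.31, -1.13 and -1.35 (adjusted p of 1.91e-06 to 0.000314). The day 1 change was -0.99 without water replicate 3 and the day 4 change was -0.99 without ethephon replicate 1, just short of 2-fold. On day 2 the apices had 3.25, 2.62 and 2.75 with ethephon and 4.55, 4.89 and 4.59 with water. At the leaf base it was called in no later comparison, and the tissue difference was called on days 1, 2 and 3 (-1.09 ± 0.31, -1.97 ± 0.29 and -1.77 ± 0.32). The study's text reports this gene as lower at the apex from 6 h and through all samplings. The apex changes here have the same direction, although days 5 and 8 were not called.

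Genes annotated to the abscisic acid response come next. Abscisic stress ripening proteins are small hydrophilic proteins that accumulate in drying and ripening tissue, first described in tomato. The gene Aco007857, on linkage group 21 at 9982751 to 9984081 (plus strand, 2 exons), was 4.61 ± 0.42 lower at the apex than at the leaf base in water controls on the log2 scale (adjusted p = 3.78e-10). It had 6.48, 7.48 and 7.09 log2 CPM in ethephon leaf bases at 6 h, against 10.52, 10.35 and 8.92 in water leaf bases. In apices it had 3.48, 3.19 and 3.55 with ethephon and 7, 4.69 and 5.32 with water. The log2 change was -3.02 ± 0.36 in leaf bases and -2.63 ± 0.41 in apices, and the 3 water apices differed among themselves by more than 2 units. The study's text reports a rise of this gene after treatment in both tissues, and the 6 h values here go the other way.

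On day 3 at the leaf base, Aco007857 was at 4.86, 5.24 and 5.18 log2 CPM with ethephon and at 6.58, 7.52 and 6.28 with water, a log2 change of -1.82 ± 0.25 (adjusted p = 0.000101). On day 1 the change there was -1.14 ± 0.2 (adjusted p = 0.00519), which became -0.95 without water replicate 3 and -0.94 without ethephon replicate 1. At the apex it was lower on day 8 (-1.1 ± 0.34, adjusted p = 0.0123), but not without ethephon replicate 2 (-0.95, adjusted p = 0.0615). DESeq2 did not make this call either (adjusted p = 0.0504). The tissue difference was called on days 1, 2 and 3, with the ethephon effect 1.14 ± 0.37, 1.95 ± 0.43 and 1.89 ± 0.37 higher at the apex.

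The GRAM domain, which binds membrane lipids, gives its name to Aco003616, annotated as ABA-responsive and located on linkage group 17 at 4267108 to 4272423 (plus strand, 3 exons). In ethephon apices at 6 h it had 8, 36 and 36 counts (0.99, 2.3 and 2.23 log2 CPM), against 145, 62 and 108 counts (5.22, 4.34 and 5.83 log2 CPM) in water apices. In leaf bases it had 6, 2 and 0 counts with ethephon and 6, 6 and 19 with water. The leaf base values thus rest on few reads. The log2 changes were -3.24 ± 0.38 at the apex and -2.47 ± 0.73 at the leaf base. The study's text reports a rise of this gene at 6 h in both tissues and on some later days at the apex. The 6 h values here go the other way.

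On day 1 the direction of Aco003616 at the apex was the opposite, at 3.73, 3.3 and 4.4 log2 CPM with ethephon and 1.79, 2.48 and 2.55 with water (1.57 ± 0.32 higher, adjusted p = 0.000379). On day 3 it was lower (-2.74 ± 0.53, adjusted p = 0.000384 with edgeR and 0.0636 with DESeq2). On day 8, at most 1 count was seen in any ethephon apex, which makes it at least 2.02-fold lower. The fall on day 6 (-2.01 ± 0.63, adjusted p = 0.0292) was lost without water replicate 1 (-1.48), ethephon replicate 1 (-2.3) or ethephon replicate 2 (-1.43).

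A list of 10 genes of abscisic acid reception and response includes both Aco007857 and Aco003616, which the rule made lower in each tissue. At 6 h, 4 of the 10 were called lower at the apex, and 4 lower and 2 higher at the leaf base. The medians were -0.86 and -0.36. Of 17 genes of ethylene synthesis and signalling, 3 were lower and 4 higher at the leaf base at 6 h, with a median of 0.52. At the apex edgeR called 0 of these 17, with 4 at an unadjusted p under 0.05, DESeq2 called 1 higher, and the median was -0.09. A list of 36 AP2/ERF transcription factors is only part of the family to which the ERF proteins belong. At 6 h, 9 of the 35 tested were higher at the apex, with a median of 0.43. At the leaf base 10 were lower and 6 higher, with a median of -0.07. All these lists were drawn up with earlier results of these data known, so the counts describe the lists and not the families. Over all genes tested at 6 h, 1.87% were lower and 1.86% higher at the apex, and 11% and 8.59% at the leaf base.

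CP12 proteins of the chloroplast bind 2 enzymes of the Calvin cycle in the dark and hold them inactive. The CP12-3 gene Aco000727, a single exon on linkage group 2 at 17161327 to 17161770 (plus strand), had 0.99, 1.6 and 1.08 log2 CPM in ethephon apices at 6 h and 3.05, 2.21 and 3.17 in water apices. Leaf bases had 2.95, 3.05 and 3.06 with ethephon and 5.56, 4.21 and 3.69 with water. It was thus lower in every ethephon library at 6 h, with log2 changes of -1.6 ± 0.43 and -1.66 ± 0.39.

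On later days Aco000727 was called in the other direction, higher with ethephon at the apex on days 1, 3 and 6, by 1.32 ± 0.46, 1.04 ± 0.39 and 1.17 ± 0.3 (adjusted p = 0.0296, 0.0472 and 0.00918). Each of these calls was lost without some single library. With DESeq2 the calls of days 1 and 3 were lost as well (adjusted p = 0.0761 and 0.0983). The day 1 call was lost without water replicate 1 (1.22) or 3 (1.17) or ethephon replicate 3 (1.11), that of day 3 without water replicate 2 (0.88) or 3 (0.9) or ethephon replicate 1 (0.86) or 2 (1), and that of day 6 without water replicate 3 (0.89). In water controls it was 1.91 ± 0.16 lower at the apex than at the leaf base (adjusted p = 4.47e-11).

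Calmodulin carries calcium signals to its partners, among them the product of Aco001039, a calmodulin-binding heat-shock protein gene on linkage group 2 at 14716577 to 14720678 (minus strand, 5 exons). It had 2.22, 4.51 and 4.27 log2 CPM in ethephon apices at 6 h, against 5.5, 5.66 and 6.34 in water apices, and 3.23, 3.08 and 3.5 in ethephon leaf bases, against 4.66, 5.14 and 4.5 in water leaf bases. One ethephon apex was far below the other two. At the apex it was also lower on day 3 (-1.73 ± 0.45, adjusted p = 0.00593) and on day 2 (-1.34 ± 0.35, adjusted p = 0.00383), though on day 2 not without water replicate 3 (-1.11, adjusted p = 0.0586).

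The last named pair is enzymes. GDSL esterases and lipases split ester bonds of lipids and other compounds, and Aco000368 on linkage group 12 at 2388879 to 2393125 (plus strand, 5 exons) is one of them. It had 1.56, 1.53 and 1.71 log2 CPM in ethephon apices at 6 h, against 3.41, 3.39 and 4.6 in water apices, and 2.8, 2.9 and 1.98 in ethephon leaf bases, against 4.15, 4.06 and 3.64 in water leaf bases. It was lower again at the apex on day 3 (-1.89 ± 0.45, adjusted p = 0.00278), where the ethephon effect was 2.71 below that at the leaf base (-2.71 ± 0.55, adjusted p = 0.00114).

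Terpenoid cyclases close the rings of terpenoid precursors, and Aco000222, with 28 exons on linkage group 12 at 3512584 to 3566819 (minus strand), is annotated as one. It had 60, 84 and 193 counts in ethephon apices at 6 h, against 220, 143 and 48 in water apices, which are 3.87, 3.51 and 4.64 log2 CPM against 5.82, 5.55 and 4.66. Leaf bases had 0, 1 and 16 counts with ethephon and 44, 81 and 251 with water. The fall was thus -4.89 ± 0.65 at the leaf base and -1.35 ± 0.31 at the apex. On day 3 no ethephon apex held a read of it, which makes it at least 3.68-fold lower there. On day 4 at the leaf base it was at least 3.43-fold higher, from 2, 7 and 8 counts with ethephon and 1, 1 and 0 with water. This call was lost without water replicate 2 (3.89, adjusted p = 0.173) or water replicate 3 (3.24, adjusted p = 0.0624). It was also lost without ethephon replicate 2 (3.49, adjusted p = 0.134) or ethephon replicate 3 (3.41, adjusted p = 0.0989), and with the replicate block (3.67, adjusted p = 0.0689).

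**Figure D5:**
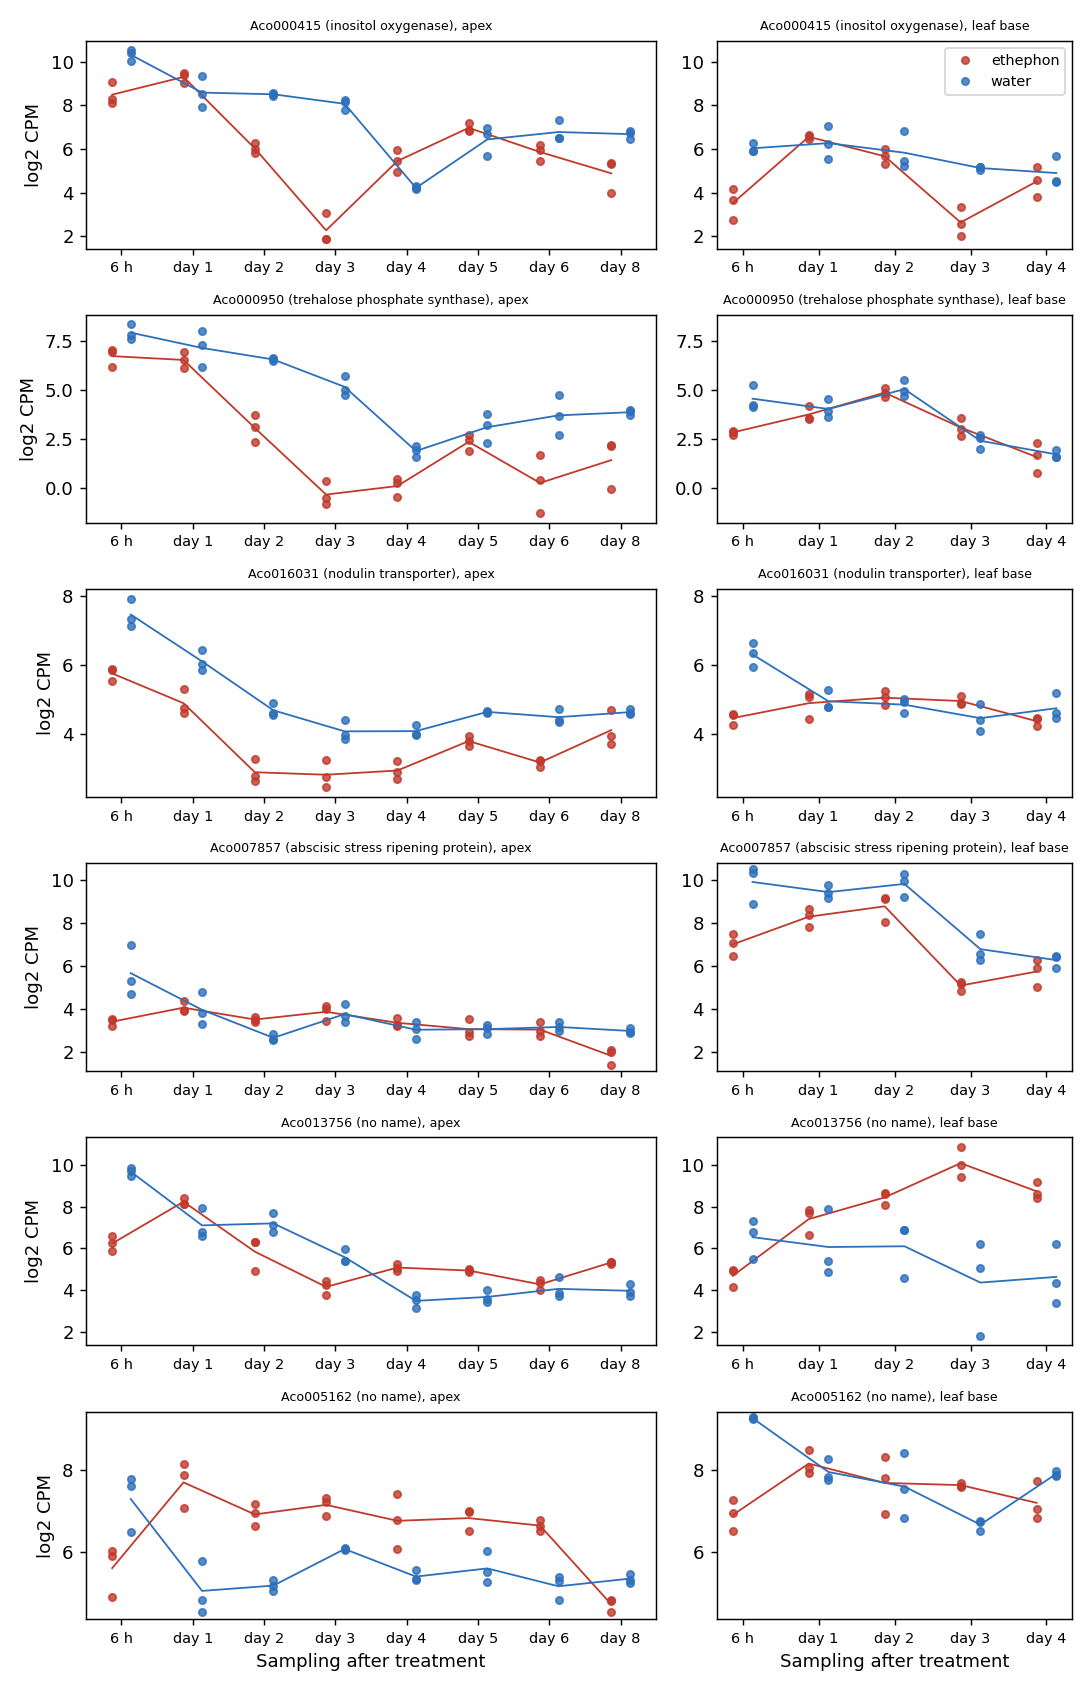
Level in each library (points, log2 CPM) of 6 of the 117 genes by sampling, apices at left and leaf bases at right, for ethephon and water, with lines through the means of the 3 libraries. At 6 h all ethephon libraries lie below all water libraries in each panel, and later the first 3 genes are lower with ethephon at the apex on several days, whereas the last (Aco005162) is higher there on days 1 to 6.

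Among the 117 genes, the 6 called lower in the most later comparisons were called lower in 5 or 6 of the 11, and the 6 called higher in the most were called higher in 3 to 7. Of the genes not named here, 1 was lower in 6 comparisons and 4 in 5, and of those 4 the gene with the smallest adjusted p is described. The first of the lower genes, Aco018447 on linkage group 1 at 4027546 to 4032066, had 5.88, 5.51 and 5.96 log2 CPM in ethephon apices at 6 h, against 7.01, 7.06 and 6.58 in water apices. On day 3 it had -0.89, 0.68 and -0.78 with ethephon and 5.31, 5.44 and 6.06 with water, a log2 change of -5.96 ± 0.34 (adjusted p = 2.84e-11). It was also lower on days 2 and 6 (-2.07 ± 0.18 and -3.56 ± 0.54), on day 8 by at least 10-fold and at the leaf base on day 3 by at least 3.49-fold. The call on day 5 (-1.47) was lost without water replicate 2 (-1.34) or 3 (-1.01).

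Aco016978, on linkage group 8 at 13354167 to 13356159, followed a similar course, with 3.34, 2.07 and 2.94 log2 CPM in ethephon apices on day 3 and 6, 6.49 and 6.84 in water apices (-3.62 ± 0.25, adjusted p = 3.59e-10). On day 8 it had 4.53, 5.94 and 6.37 with ethephon and 8.07, 8.58 and 8.23 with water (-2.5 ± 0.19, adjusted p = 3.36e-14), and on day 6 it was lower as well (-1.98 ± 0.33). Its calls at the apex on day 5 and at the leaf base on day 2 were lost with the replicate block or without single libraries. On day 5 the changes were -1.1 and -0.73 without water replicates 2 and 3, and DESeq2 did not make the call (adjusted p = 0.171). On day 2 at the leaf base they were -0.98, -1.05 and -1.18 without water replicate 2, ethephon replicate 2 and ethephon replicate 3.

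The gene called higher in the most later comparisons was Aco013756, on linkage group 13 at 10451151 to 10452458. It had 6.24, 5.86 and 6.6 log2 CPM in ethephon apices at 6 h, against 9.85, 9.48 and 9.69 in water apices, and 4.96, 4.93 and 4.16 in ethephon leaf bases, against 6.8, 5.51 and 7.3 in water leaf bases. On day 3 at the leaf base it had 9.4, 10.86 and 9.98 with ethephon and 5.07, 6.2 and 1.81 with water. The gene was lower in all ethephon libraries at 6 h and higher in all of them on day 3 at the leaf base.

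That leaf base difference of Aco013756 was 4.96 ± 0.64 on day 3 (adjusted p = 6.57e-05) and 3.68 ± 0.49 on day 4 (adjusted p = 0.000585). At the apex it was lower on day 3 (-1.44 ± 0.21, adjusted p = 1.12e-05) and higher on days 4, 5 and 8 (1.56 ± 0.16, 1.24 ± 0.18 and 1.38 ± 0.17). Its apex calls of days 1 and 2 fell short of 2-fold without single libraries. On day 1 the changes were 0.78, 0.84 and 0.91 without water replicate 1, water replicate 2 and ethephon replicate 3. On day 2 they were -0.98 and -0.92 without water replicate 1 and ethephon replicate 2. The leaf base call of day 2 (2.03 ± 0.44, adjusted p = 0.0395) was lost without water replicate 2 (2.32), ethephon replicate 1 (1.96) or ethephon replicate 3 (1.92). The adjusted p was then 0.0727, 0.0876 and 0.169. With DESeq2 the apex call of day 1 and the leaf base call of day 2 were lost as well (adjusted p = 0.0592 and 0.0545). The filter of 1 CPM also lost the leaf base call of day 2 (adjusted p = 0.0811).

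Aco005162, a single exon on linkage group 7 at 2607024 to 2607299, had 4.9, 5.89 and 6.02 log2 CPM in ethephon apices at 6 h, against 7.78, 6.49 and 7.61 in water apices, and 6.5, 7.27 and 6.94 in ethephon leaf bases, against 9.29, 9.28 and 9.24 in water leaf bases. On day 1 the apices had 8.15, 7.07 and 7.88 with ethephon and 4.54, 4.83 and 5.77 with water. The gene was thus lower at 6 h and higher on day 1, by 2.62 ± 0.24 on the log2 scale (adjusted p = 9.26e-09). It stayed called higher at the apex through day 6, by 1.07 to 1.79, although on day 3 not without ethephon replicate 1 (0.97). At the leaf base it was called in no later comparison, the change of 0.94 on day 3 being short of 2-fold (adjusted p = 4.2e-05), and the tissue difference was called on days 1, 2 and 4 (2.43 ± 0.36, 1.79 ± 0.46 and 2.1 ± 0.32).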

How the data were processed

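RNA of 3-plant pools was sequenced with a strand-specific kit. Per the labels and the study's methods, the authors checked reads with FastQC 0.10.1, trimmed them with Trimmomatic 0.36, aligned them to the assembly Acomosus_321_v3 with HISAT2 2.0.5, handled alignments with SAMtools and deposited raw read counts per gene from featureCounts 1.6.0, made without strand and with multi-mapping reads counted. The deposited counts were used as they stand. Counts of multi-mapping reads can be shared between copies of a gene, which can move the values of either.

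In 13 comparisons, 3 ethephon libraries were set against 3 water libraries. Genes with at least 1 count were scaled by TMM and tested with edgeR 4.0.16 (quasi-likelihood F test) in R 4.3.3, with Benjamini-Hochberg adjustment over all genes tested. Calls needed an adjusted p under 0.05 and a log2 change of at least 1 in size. Values after ± are an approximate SE, the size of the log2 change divided by the square root of the F statistic. They are unreliable where the change is close to none. Tissue differences were tested as an interaction over 12 libraries of 1 sampling, and again with the pool of plants as a block (added after the data were seen). For this block, same-numbered libraries of the 2 tissues were taken as one pool, which the labels do not state. Over 30 such pairs their deviations correlated at -0.0819 to 0.2 (median 0.0208). Levels are log2 CPM with a prior count of 0.25, so that -4.41 stands for a count of 0. With 3 libraries a group an exact permutation test of single values cannot go below p = 0.1, so none was used. The 3 replicates are separate field replications. DESeq2 1.42.0, other scaling, filters, a replicate block and leaving out each library were tried. The scripts were tested on simulated counts.

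The text names the 10 genes with a name in the study's text or annotation, and the 2 called lower and the 2 called higher in the most later comparisons among the others, ties by smallest adjusted p. The genes and the gene lists were chosen with earlier results of these data known. No sequences were used here.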

Additional observations from a re-analysis of the deposited data

Results flagged for a closer look

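The results given here are those in which the ethephon effect differed between the stem apex and the leaf base after 6 h, by the interaction test in edgeR's quasi-likelihood framework (adjusted p under 0.05 and a difference of at least 2-fold). Differences are log2 fold change at the apex minus that at the leaf base. Of the 117 genes, the numbers called were 17, 24, 31 and 20 for days 1 to 4. The lane differs between treatments in every apex comparison, and its part in these differences was not tested. Apices and leaf bases came from the same plants. With the pool of plants as a block, 21 of the 22 differences of single genes given below were called as well.

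The ethephon effect was lower at the apex for trehalose phosphate synthase (Aco000950) by -3.1 on day 2 and -6.21 on day 3, for inositol oxygenase (Aco000415) by -2.13 on day 2 and -3.18 on day 3, and for the nodulin transporter (Aco016031) by -1.09, -1.97 and -1.77 on days 1, 2 and 3. On day 3 it was lower for the GDSL esterase Aco000368 (-2.71), the calmodulin-binding protein Aco001039 (-2.41) and Aco016978 (-3.4). Aco013756 differed by -3.29, -6.42 and -2.09 on days 2, 3 and 4. For the terpenoid cyclase Aco000222 the fitted difference of day 3 was -5.83. No ethephon apex held a read of it, so that this value depends on the prior count and is no bound, and with the pool of plants as a block it was not called (adjusted p = 0.057).

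The ethephon effect was higher at the apex for Aco000415 on day 4 (1.68), for the GRAM domain gene Aco003616 on day 1 (1.83) and for the abscisic stress ripening gene Aco007857 on days 1, 2 and 3 (1.14, 1.95 and 1.89). It was also higher for Aco005162 on days 1, 2 and 4 (2.43, 1.79 and 2.1).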

How the results depend on the processing

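Among the counts recomputed under the alternatives, 208 values stayed within 1.5 times the value in the report and 32 did not. With DESeq2, 107 genes met the 6 h rule (101 of the 117), with RLE scaling 123 (117), with a filter of 1 CPM in 3 libraries 83 (80), and with a log2 limit of 2 there were 48. Adjusted p alone gave 33 calls for apex day 1 (19 in the report), 35 for apex day 4 (21) and 76 higher calls over all apex comparisons (50). DESeq2 called 16 on apex day 8 (27) and 1 between water apices of days 6 and 8 (0). The filter left 1 on leaf base day 2 (5) and 6 higher over all leaf base comparisons (12). Same-numbered replicates did not deviate together (0 of 13 comparisons had every correlation above 0.1, range -0.147 to 0.0801), so the numbers were not taken as pairs. A replicate block gave 127 genes at 6 h (109 of the 117), 9 calls on leaf base day 1 (5), 2 on leaf base day 2 (5), and 1 each between water apices of days 5 and 6 and of days 6 and 8 (0). Taking apices and leaf bases of 1 number as 1 pool of plants, a replicate block chosen after seeing the data, moved no tissue count by over 1.5 times. Without 1 library, the 6 h rule gave 92 to 130 genes. The apex calls were 19 to 24 on day 1, 29 to 45 on day 2, 46 to 50 on day 3, 16 to 26 on day 4, 8 to 14 on day 5, 15 to 28 on day 6 and 21 to 28 on day 8. The leaf base calls were 4 to 10, 0 to 10, 19 to 26 and 2 to 13 on days 1 to 4. Between water apices they were 20 to 33 (day 5 against 4), 0 to 1 (6 against 5) and 0 to 7 (8 against 6). In the tissue comparison of water controls they were 27 to 28 higher and 36 to 42 lower, and for the tissue difference in ethephon effect 19 to 27, 16 to 35, 25 to 34 and 10 to 26 on days 1 to 4. Of 56 calls of named genes, 18 were lost under at least 1 alternative and 0 changed direction. The causes were not tested. A prior count of 2 moved levels by 0 to 1.59 (median 0.02), most where counts were low. Depth limits the ethephon apices of day 8 most. There, 33 genes had at most 3 counts in every ethephon library but not in every water library, and 9 more in every library of both.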
